A study of Mus musculus with 6 samples.

Results

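The Rtl1-antisense miRNA cluster is a group of 6 small hairpin genes on mouse chromosome 12, Mir431, Mir433, Mir127, Mir434, Mir432 and Mir136, which lie inside the gene span of Rtl1 in the Dlk1-Dio3 imprinted domain. All miRNA names on the arrays with 1 of these 6 stems were taken, both arms and undetected ones included, which gave 11 of the 690 miRNA names and 29 of the 1928 probes. MicroRNA levels were measured on 6 1-colour arrays in 2 sorted populations from SMA-GFP transgenic mice, in which GFP reports the smooth muscle actin gene of contractile cells. The first, GFP-high cells that the submitters call myofibroblasts, came from wounds 7 days after injury (samples 3, 4 and 6), and the second, GFP-low cells called fibroblast-like, came from the dermis of skin (samples 1, 2 and 5). Both were sorted as negative for CD45 and CD31, surface markers of blood cells and endothelium. Mouse age and strain, and whether mice were pooled or the preparations came from separate animals, are not given in the sources used here. The p-values therefore describe only how far these preparations vary, some of which may be technical. Wound cells differ from skin cells in both tissue and GFP level, and what each adds to a difference cannot be told apart.

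MicroRNAs are cut from hairpins and guide silencing complexes to messenger RNAs that pair with their seed, bases 2 to 8. In the Dlk1-Dio3 domain the miRNAs are transcribed from the maternal chromosome, while Rtl1, a gene derived from a retrotransposon, is expressed from the paternal one. The cluster lies on a transcript antisense to Rtl1, so that its miRNAs match Rtl1 messenger RNA perfectly, and in the mouse they are known to direct its cleavage in trans. miR-127-3p is also known from human cells as a regulator of the repressor BCL6, and miR-431 from mouse muscle stem cells as a regulator of Pax7.

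The 6 hairpins fell on the plus strand within 4942 bases, and all 6 lay inside the Rtl1 gene span of the same RefSeq assembly, GRCm38.p6. The order was Mir431 (chr12:109590447-109590537), Mir433 (chr12:109591715-109591838), Mir127 (chr12:109592846-109592915), Mir434 (chr12:109594506-109594599), Mir432 (chr12:109594956-109595030) and Mir136 (chr12:109595327-109595388). Gaps between neighbours ran between 296 bases (Mir432 to Mir136) and 1590 bases (Mir127 to Mir434). The mature sequences below, from RefSeq, are those of the 7 arms that were detected, with the seed in capitals, because it is the part by which each finds its targets (mmu marks a mouse miRNA).

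mmu-miR-431-5p: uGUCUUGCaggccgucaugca
mmu-miR-433-3p: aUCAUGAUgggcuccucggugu
mmu-miR-127-3p: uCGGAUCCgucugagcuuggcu
mmu-miR-434-5p: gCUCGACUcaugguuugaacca
mmu-miR-434-3p: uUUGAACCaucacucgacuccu
mmu-miR-136-5p: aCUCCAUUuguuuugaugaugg
mmu-miR-136-3p: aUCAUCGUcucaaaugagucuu

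All 11 names of the cluster matched a RefSeq mature sequence, and their 11 seeds were all different. None of them was shared with any other mature mouse miRNA in the RefSeq table. The hairpins of Mir127 and Mir434 are shown with their mature arms in capitals, since Mir127 gave 1 detected arm and Mir434 gave 2.

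Mir127: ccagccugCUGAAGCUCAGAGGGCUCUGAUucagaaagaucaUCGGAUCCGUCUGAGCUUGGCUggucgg
Mir434: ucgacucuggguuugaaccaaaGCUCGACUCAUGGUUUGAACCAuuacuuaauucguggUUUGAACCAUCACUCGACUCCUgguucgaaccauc

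In the Mir434 hairpin the arms share a run of 9 bases, UUUGAACCA, at base 1 of miR-434-3p and base 14 of miR-434-5p. The arms of Mir431 share 10 bases, GUCUUGCAGG. Outside these pairs the longest run shared by any 2 members was 7 bases. Probe sequences are not given in the sources used here, so cross-hybridisation between arms was not tested.

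The scanner software flags spots well above background; a probe counted as detected on an array if over 50% of its usable spots had this flag, and a miRNA if 1 or more of its probes did. Levels are log2 of the processed signal divided by the 75th percentile of each array's brighter probes, averaged over a miRNA's probes and raised to a common floor of -5.31, below which dim signals have no order. The wound arrays had 210, 233 and 218 names well above background, and the skin arrays 188, 194 and 224. That scaling percentile was 782, 1086 and 1134 intensity units on the wound arrays and 1475, 1232 and 1749 on the skin arrays, so the skin arrays were brighter and scaling raised wound levels relative to skin. The authors' deposited log2 table repeats the total signals of these arrays, but its column numbers do not match the sample numbers in the array titles for any of the 6. By values its columns 1 to 3 hold the 3 wound arrays and columns 4 to 6 the 3 skin arrays. Levels here come from the scanner files, each of which is tied to its own sample.

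Of the cell type markers, the 5 mesenchymal and contractile ones (miR-199a, miR-214, miR-143 and miR-145a) were detected in both groups, with a summed log2 level of 3.74 to 3.89 on wound arrays and 3.95 to 4.37 on skin arrays. They did not move together: miR-143-3p (1.24) and miR-145a-5p (0.66), which mark contractile cells, were higher in wound cells, miR-199a-3p was lower (-0.63), and miR-214-3p (0.44) and miR-199a-5p (-0.01) did not pass the test (limma, log2 differences). Of 7 keratinocyte miRNAs 0 were detected on wound arrays and 2, miR-203-3p and miR-205-5p, on the skin arrays, with a summed log2 level of -2.51 on every wound array and -2.18 to -1.75 on skin arrays. The wound sum holds floor values only. miR-203-3p and miR-205-5p passed as lower in wound cells, with log2 differences of -1.48 and -0.94 (limma adjusted p = 0.0040 and 0.026). The 6 blood cell miRNAs stayed at the floor throughout, with a summed level of -2.73 on wound and on skin arrays, although a probe of miR-451a was well above background on 2 skin arrays. The 4 striated muscle miRNAs on the array were at background on all arrays, and of the 2 endothelial ones miR-126-3p was detected on all 6 and miR-126-5p on 0. The summed endothelial level was -3.69 to -3.36 on wound arrays and -4.03 to -3.58 on skin arrays. The part of other cells in the differences below was not tested.

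The comparison asked whether miR-127-3p, which the series title links to myofibroblast senescence, and its cluster neighbours stood at other levels in myofibroblasts of the wound than in GFP-low skin cells. On the wound arrays 7 of the 11 names were detected each time, and every one of these 7 had a higher level there than in skin. Of these 7, 5 entered the test through their wound arrays alone, which favours higher wound values. For 48.9% of all 221 tested miRNAs, too, every wound array lay above every skin array. miR-127-3p and miR-434-3p, the members measured on all 6 arrays, were 9.38-fold and 8.40-fold higher in wound cells. miR-431-5p, miR-433-3p and miR-136-3p were detected on 0 of the 3 skin arrays. In bulk samples fewer cells with a miRNA and less of it per cell cannot be told apart.

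**Figure D1:**
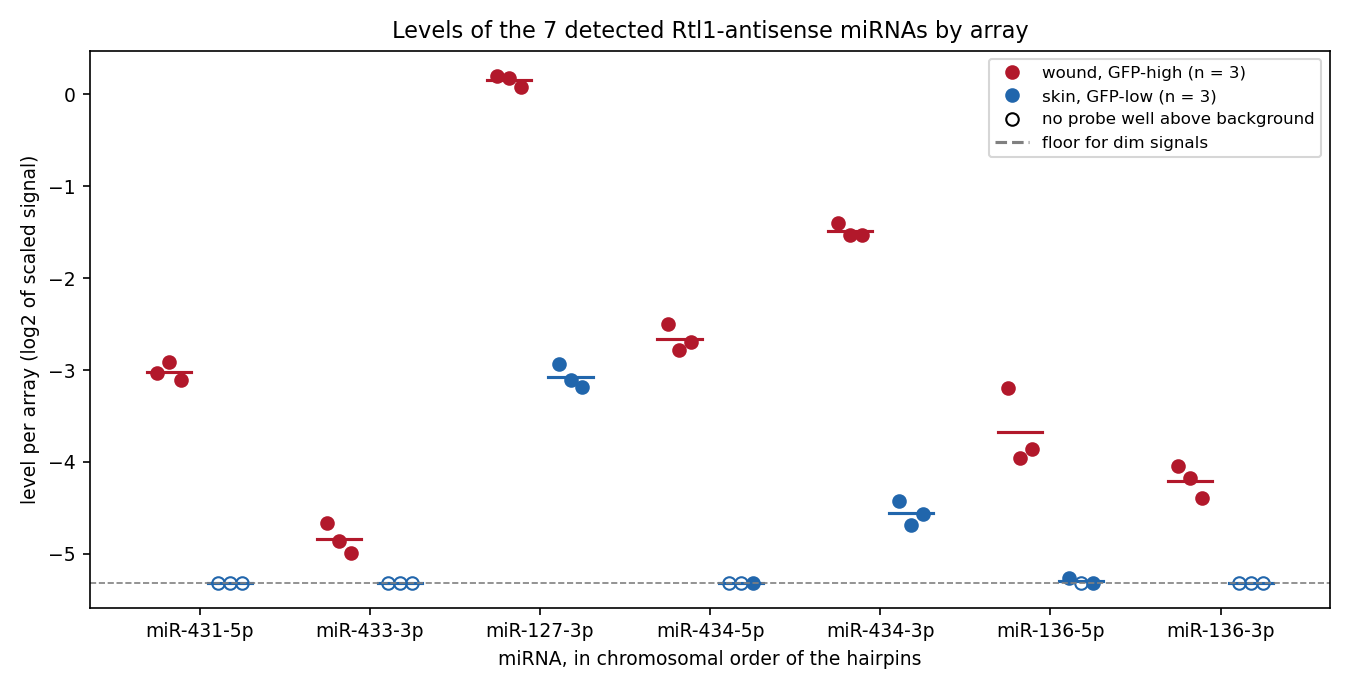
Level of each of the 7 detected members on each array, as log2 of the scaled signal, with wound arrays left of skin arrays, a bar for the mean of 3 arrays and open circles where no probe was well above background. The wound points of all 7 lie above the skin points, as did those of 48.9% of all tested miRNAs. Only miR-127-3p and miR-434-3p lie off the floor of -5.31 on all 3 skin arrays.

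In limma fitted over all 221 tested miRNAs, 7 of 7 tested members passed a Benjamini-Hochberg adjusted p of 0.05 as higher in wound cells and 0 as lower. The background was high, since 44.3% of all tested miRNAs passed as higher and 20.8% as lower (98 and 46). Other scalings moved this split to 52 higher and 76 lower (75th percentile over all probes), 67 and 66 (median), 76 and 69 (quantile) and 54 and 56 (none). Likewise the wound arrays of all 7 lay above their skin arrays, as did those of 48.9% of all tested miRNAs. Of the 7, 5 met the detection filter through their wound arrays alone, a choice that favours higher wound values, and nothing is read from their count. Among the 157 miRNAs well above background on all 6 arrays, 37.6% passed as higher and 42.7% had wound arrays that all lay above the skin arrays; both miR-127-3p and miR-434-3p were among these.

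mmu-miR-127-3p, the 3′ arm of Mir127 and the brightest member, had log2 levels of 0.20, 0.18 and 0.08 on wound arrays 3, 4 and 6, against -2.93, -3.11 and -3.18 on skin arrays 1, 2 and 5. Every wound array exceeded every skin array by over 3 log2 units, far more than arrays of 1 group differed. The mean was 0.16 ± 0.06 in wound cells and -3.07 ± 0.13 in skin cells (SD, n = 3 each). The difference of 3.23 (SE 0.08, limma adjusted p = 4.0e-06) ranked 6 among the 157 miRNAs measured on all arrays. It lay 2.85 above the median of all tested miRNAs, 0.37. Before scaling, the mean processed signal was 898, 1234 and 1201 intensity units on the wound arrays and 194, 143 and 193 on the skin arrays, so the groups were apart in the scanner's own units too. Its 2 probes gave nearly the same difference, 3.31 and 3.21, and every usable spot of both was flagged well above background on all 6 arrays. The arrays stood in 2 rows on 1 slide, and within row 1 (1 wound and 2 skin arrays) the difference was 3.22 and within row 2 (2 wound and 1 skin) it was 3.32.

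The opposite arm, mmu-miR-127-5p, was detected on no array. No spot of its 4 probes carried the flag, and the mean signal lay between -4.61 and -1.72 intensity units on wound arrays and between -6.01 and -4.28 on skin arrays. A rise of the 5′ arm was therefore not detectable at this signal.

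mmu-miR-434-3p, from the next hairpin downstream, had levels of -1.40, -1.53 and -1.53 on wound arrays 3, 4 and 6, against -4.42, -4.68 and -4.56 on skin arrays 1, 2 and 5. The groups did not overlap, and the 3 wound values lay close together. The mean was -1.49 ± 0.08 in wound cells and -4.56 ± 0.13 in skin cells (SD, n = 3 each), a difference of 3.07 (SE 0.08, limma adjusted p = 4.6e-06). In skin only the brighter of its 2 probes was well above background, and this probe differed by 3.06. The difference of miR-434-3p stayed at 3.07 with a floor 4 times lower. With a floor 4 times as high, which lies above its skin levels, it was 1.83. Within slide rows 1 and 2 the differences were 3.16 and 3.03.

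miR-434-5p, the opposite arm, had levels of -2.50, -2.78 and -2.69 on wound arrays, against the floor of -5.31 on all 3 skin arrays. Only on skin array 5 was 1 of its probes well above background. Its unscaled mean signal was 138, 158 and 175 intensity units on wound arrays 3, 4 and 6, against 20.5, 10.5 and 23.7 on skin arrays 1, 2 and 5. The fitted difference of 2.66 (SE 0.08, limma adjusted p = 5.6e-06) depends on where the floor is set. It was 3.76 with a floor 4 times lower and 0.66 with a floor 4 times as high. Its SE holds no spread of skin cells, since all 3 skin arrays lay at the floor. Both arms of Mir434 were thus measured in wound cells, unlike those of Mir127.

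**Figure D2:**
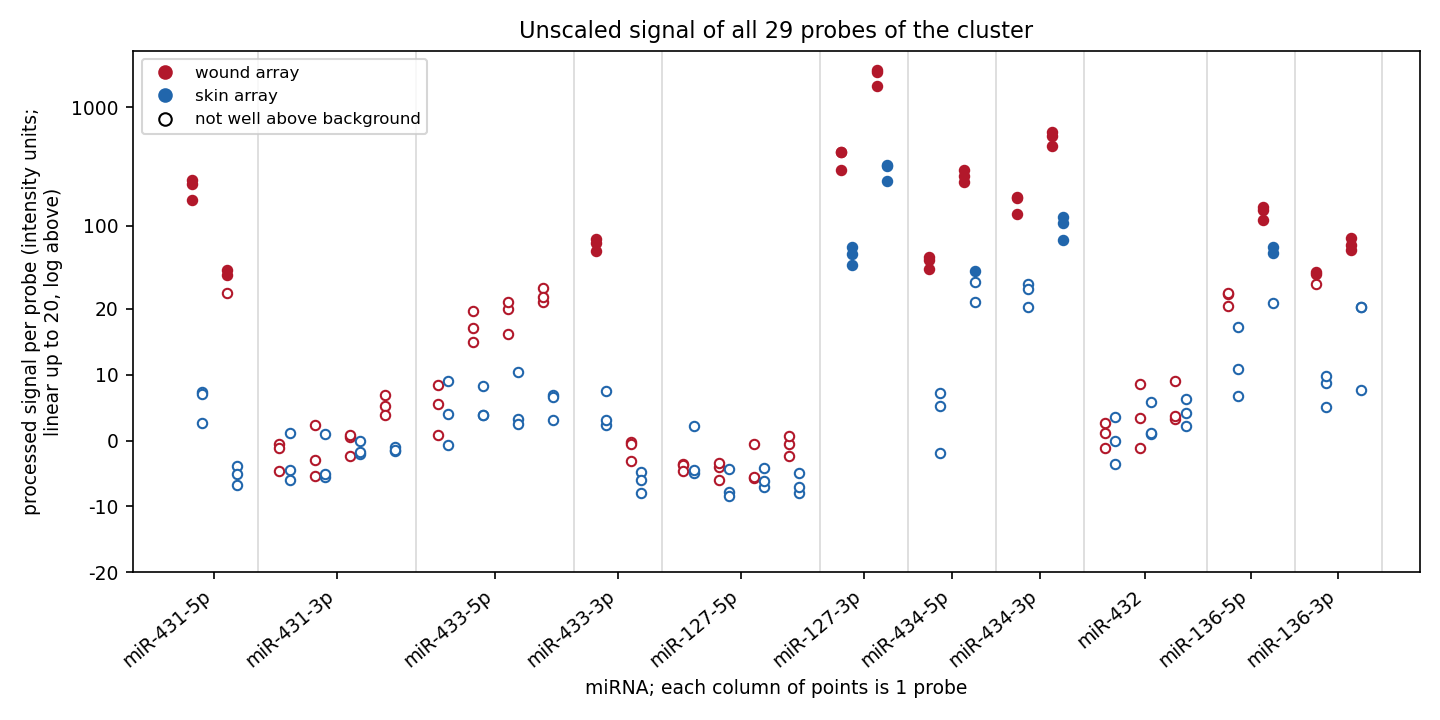
Processed signal before any scaling for each of the 29 probes of the 11 names, in intensity units on an axis that is linear up to 20 and logarithmic above, with wound arrays left of skin arrays and open circles for probes not well above background. The probes of miR-127-5p, miR-431-3p and miR-432 lie near 0 in both groups, and the probes of miR-127-3p reach 2045 on a wound array.

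miR-431-5p, the most upstream detected arm, was at levels of -3.03, -2.92 and -3.11 on wound arrays 3, 4 and 6 and at the floor on all 3 skin arrays, where 0 of its spots carried the flag. Its unscaled signal was 95.5, 144 and 131 intensity units on the wound arrays, against 0.288, -0.535 and 1.05 on the skin arrays. The wound level was at least 5.48-fold higher (fitted difference 2.29, SE 0.06, limma adjusted p = 4.0e-06), the bound being set by the lowest signal well above background on each skin array. By its brighter probe alone the wound level was at least 9.36-fold higher. The fitted difference depends on the floor, and it was 4.29 with a floor 4 times lower and 0.29 with a floor 4 times as high. With normexp background correction it was 1.26 and did not pass (limma adjusted p = 0.17). As all 3 skin arrays lay at the floor, the SE holds no spread of skin cells. The other arm, miR-431-3p, had a mean signal of -1.18 to 1.53 intensity units on wound arrays and -3.53 to -1.28 on skin arrays and was detected on none.

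mmu-miR-433-3p, which has been linked to kidney fibrosis in mice, was the dimmest tested member, at -4.66, -4.87 and -4.99 on wound arrays 3, 4 and 6 and at the floor on the skin arrays. The wound level was at least 1.55-fold higher (fitted difference 0.47, SE 0.09, adjusted p = 0.0074 in limma), which is 0.10 above the median difference of all tested miRNAs. Its 2 probes disagreed. One was well above background on all 3 wound arrays with 61.9 to 77.7 intensity units, against 2.38 to 7.45 on the skin arrays, and gave at least 3.15-fold. The other was below 0 on every array and lowers the mean. The call rested on the scaling and held under 2 of 5, with differences of 0.05 to 0.47. With the skin arrays at the floor, the SE of 0.09 holds no spread of skin cells. The 5′ arm, miR-433-5p, stayed below the detection rule on all arrays, with 13.7, 18.8 and 18.3 intensity units on wound arrays 3, 4 and 6, against 8.63, 4.46 and 2.16 on skin arrays 1, 2 and 5.

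Mir136, the most downstream hairpin, gave 2 dim arms. mmu-miR-136-5p was at -3.20, -3.96 and -3.86 on wound arrays 3, 4 and 6, against -5.27, -5.31 and -5.31 on skin arrays 1, 2 and 5. Wound array 3 was the highest, and the wound SD of 0.41 was the largest of any member. The difference was 1.63 (SE 0.22, adjusted p = 0.0019 in limma), and it was 1.39 without wound array 3, and 2.09 and 1.40 within slide rows 1 and 2. As skin arrays 2 and 5 lay at the floor, it depends on the floor, and with a floor 4 times as high it was 0.04 (adjusted p = 0.59 in limma). With normexp it was 1.15 and did not pass either (adjusted p = 0.17 in limma). One probe was well above background on 3 wound arrays and 2 skin arrays, and the other on none. mmu-miR-136-3p was at -4.04, -4.18 and -4.39 on the wound arrays and at the floor on the skin arrays. The wound level was at least 2.41-fold higher (fitted difference 1.11, SE 0.10, adjusted p = 3.2e-04 in limma), with no spread of skin cells in the SE. Its call too was lost with the higher floor and with normexp. RefSeq places miR-3071 on the minus strand across Mir136, and its 3p arm is complementary to miR-136-5p over 20 bases. The stem miR-3071 is part of the Dlk1-Dio3 list described below, but no name with it was tested. miR-432, between Mir434 and Mir136, was detected on no array, with 1.24 to 6.80 intensity units on wound arrays and 0.547 to 5.23 on skin arrays.

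The members measured on all arrays were set against each other directly. The level of miR-127-3p minus that of miR-434-3p within each array averaged 1.64 ± 0.07 on wound arrays and 1.48 ± 0.10 on skin arrays (SD, n = 3 each). Their differences thus differed by 0.16 (SE 0.07), and the arrays of the groups did not overlap (exact two-sided permutation test, p = 0.1, the smallest that 3 against 3 arrays allow). With a floor 4 times as high the difference of miR-434-3p fell to 1.83, while that of miR-127-3p stayed at 3.23. For the 5 members at or near the floor in skin the differences are bounds or depend on the floor, so no order among them is given.

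**Figure D3:**
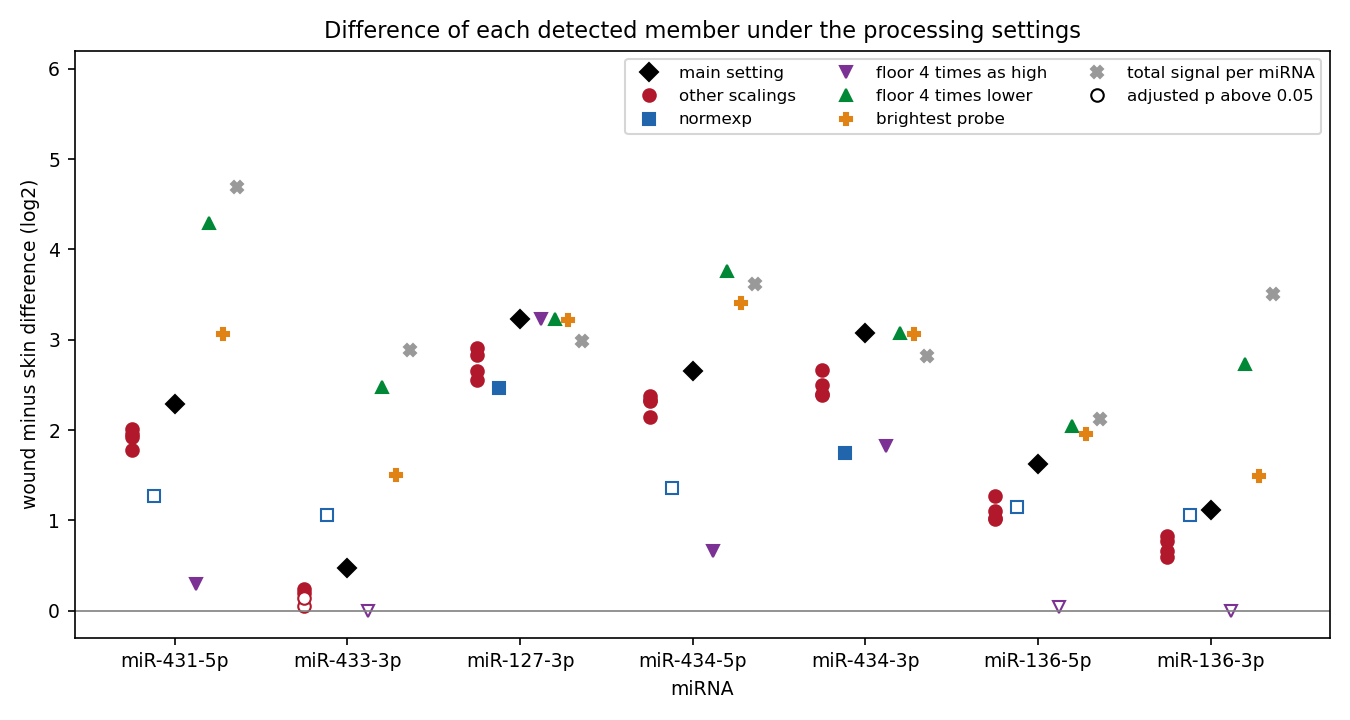
Wound minus skin difference on the log2 scale for each detected member under the main setting and under other scalings, normexp background correction, other floors, the brightest probe and the scanner software's total signal; open symbols have an adjusted p above 0.05. The points of miR-127-3p stay between 2.46 and 3.23, while those of the members at the floor in skin move with the floor. That of miR-434-3p falls to 1.83 with the floor 4 times as high.

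Scaling and background correction changed the size of the differences. Over the 5 scalings, which moved the median of all tested miRNAs between -0.19 and 0.37, miR-127-3p differed by 2.55 to 3.23 and miR-434-3p by 2.39 to 3.07. Relative to that median, they lay 2.74 to 2.91 and 2.40 to 2.70 above it. miR-431-5p, miR-434-5p and both arms of Mir136 also passed as higher under each of the 5, though the sizes of their differences depend on the floor. With normexp background correction only miR-127-3p (2.46) and miR-434-3p (1.75) passed. The median of all tested miRNAs was 1.02 there, so both lay less far above it than under the 5 scalings.

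Other miRNAs of the Dlk1-Dio3 domain were listed from 49 further stems, which gave 65 names on the array, of which 33 were tested. Of the 33, 29 passed as higher, 0 as lower and 4 did not pass (miR-134-5p, miR-376a-5p, miR-376c-3p and miR-494-3p), beside 44.3% higher over all tested miRNAs. Nothing is read from this count, since 20 of the 33 were tested on the strength of their wound arrays alone. The 13 measured on all arrays comprised 11 called higher, 0 called lower and 2 short of the threshold, miR-376c-3p (1.06, adjusted p = 0.33 in limma) and miR-494-3p (0.51, adjusted p = 0.43), beside 37.6% called higher among the 157. Their median of 3.02 compares with 0.23 over all 157 miRNAs measured on all arrays, and the largest differences among these 13 were those of miR-300-3p (3.84), miR-377-3p (3.56) and miR-382-5p (3.52). Mir337, the nearest upstream hairpin with a tested name of the list, lies at -7.06 kb from the start of Mir127, and its miR-337-5p and miR-337-3p differed by 3.12 and 2.87. Downstream, miR-341-3p and miR-370-3p differed by 1.33 and 1.01 at 18.7 and 25.4 kb. In skin miR-341-3p lay at the floor of -5.31. Near it were the skin means of miR-337-5p (-5.24), miR-337-3p (-5.24), miR-382-5p (-5.21) and miR-377-3p (-5.11), so these differences may depend on the floor. The list was written with results of these data known, and its direction is no independent support.

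**Figure D4:**
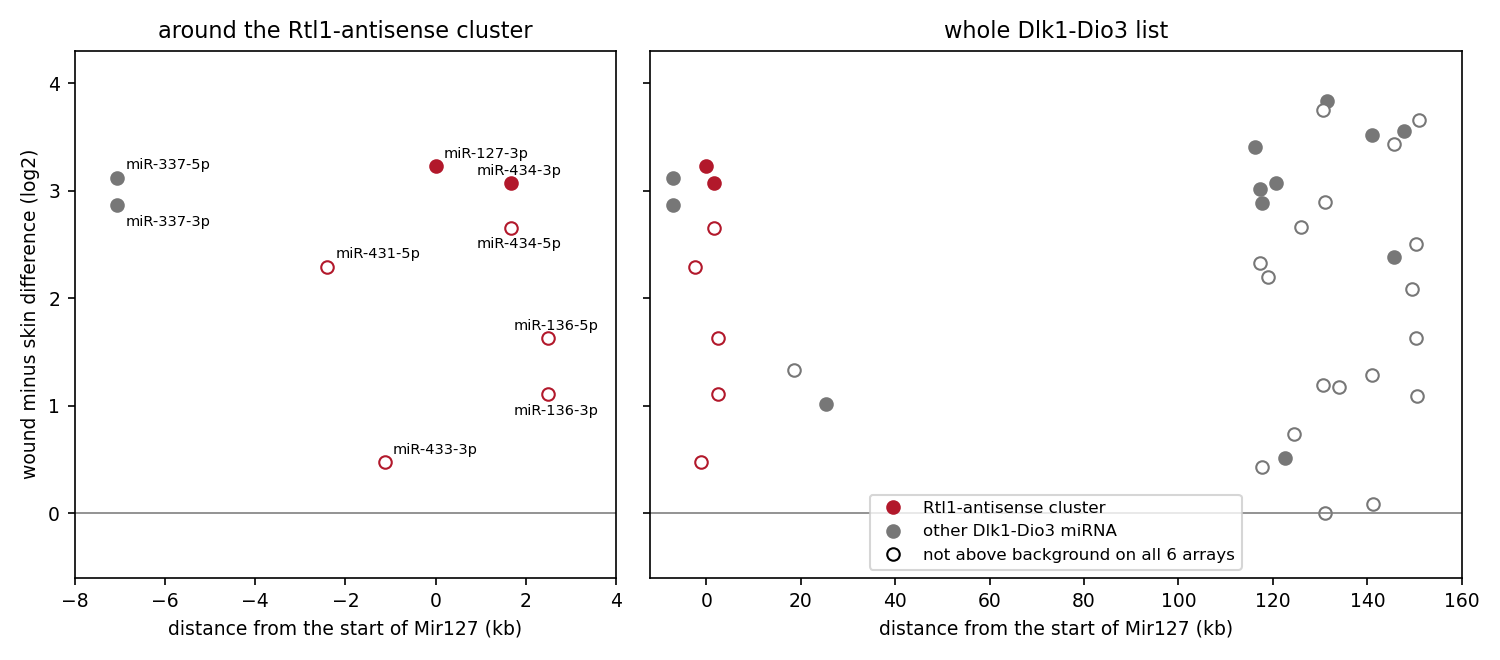
Wound minus skin difference on the log2 scale against the distance from the start of Mir127 in kb, for 38 of 40 tested members and listed miRNAs that could be placed; the left panel enlarges the region around the cluster, red marks the cluster and open circles mark miRNAs not above background on all 6 arrays. miR-127-3p and miR-434-3p lie at the height of miR-337-5p upstream and of many miRNAs at 116 kb and beyond.

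Profiles over the 6 arrays were compared after the mean of each miRNA was taken off, by the root mean square difference from miR-127-3p on the log2 scale. Among the 157 miRNAs measured on all arrays, miR-434-3p was the closest at 0.105. The 5 closest miRNAs from outside the cluster were miR-337-5p (0.107), miR-329-3p (0.112), miR-382-5p (0.173), miR-337-3p (0.186) and miR-299b-5p (0.192), against a median of 1.52 over 155 non-members. All 5 belong to the Dlk1-Dio3 list. In skin, miR-337-3p lay at the floor of -5.31 on arrays 2 and 5, and miR-337-5p on array 2. Skin levels of miR-382-5p were near it, at -5.14, -5.20 and -5.30 on arrays 1, 2 and 5. For these miRNAs the floor limits how low the skin part of the profile can lie. miR-337-5p averaged -2.12 ± 0.13 in wound cells and -5.24 ± 0.06 in skin cells, close to the floor, and miR-329-3p averaged -1.55 ± 0.04 in wound cells and -4.61 ± 0.02 in skin cells (SD, n = 3 each). The groups set most of this likeness, since each profile is high on 3 arrays and low on 3.

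**Figure D5:**
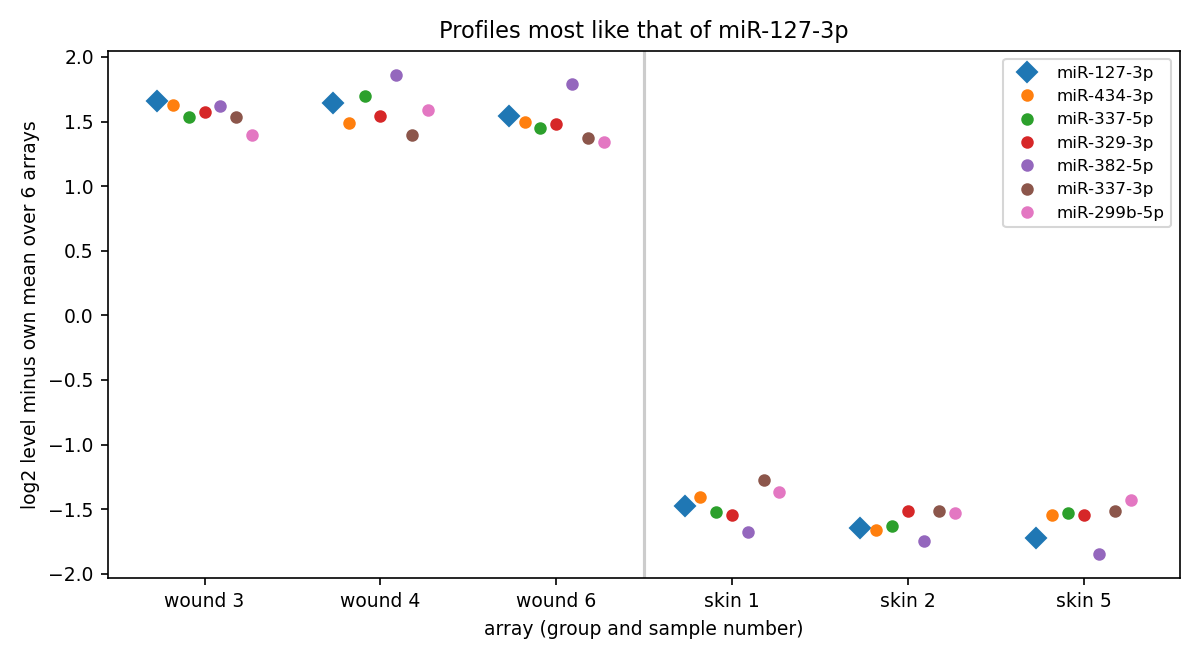
Log2 level minus each miRNA's own mean over the 6 arrays, for miR-127-3p (diamonds), miR-434-3p and the 5 most similar miRNAs from outside the cluster, on the 3 wound arrays and the 3 skin arrays. All 7 sit above 1 on the wound arrays and below -1 on the skin arrays.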

How the data were processed

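RNA labelled with Cy3 was read on 1-colour miRNA arrays from Agilent, 6 on 1 slide, per the labels and the file headers. Each deposited scanner file gives the linear intensity of every spot, background-subtracted by Agilent Feature Extraction 10.7.3.1, per the file headers, with no scaling across samples. A log2 table from the authors was deposited too, each column of which equals the log2 total signal of 1 array minus a constant within 0.001 over 656 shared names; its normalization is not stated. Each probe had 5 to 20 spots on an array, before spots with outlier flags were left out. Processed signals were averaged over the remaining spots of a probe and divided by the 75th percentile over the 276 probes detected on every array. They were then averaged over probes and floored. Names were tested when the 3 arrays of at least 1 group all detected them. limma 3.58.1 (lmFit and eBayes, R 4.3.3, two-sided) compared the groups, with Benjamini-Hochberg adjustment over 221 names. A fold against skin arrays without detection is a bound: the wound mean against, per skin array, the lowest detected signal or the miRNA's own, whichever is higher. Where a group lies at the floor, no spread is measured, and standard errors are too small. With 3 arrays a group, precision is set by that number. No spot was saturated (0), and member spots had a local background of 39.0 to 71.0 intensity units. Sequences and positions came from RefSeq tables of GRCm38.p6; the array design names mm9, of which no coordinates were used. All members are named; the 5 miRNAs most like miR-127-3p and the 3 largest listed differences followed fixed rules. The members and lists were chosen with earlier results of these data known. Figures were drawn with matplotlib 3.10.9.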

Additional observations from a re-analysis of the deposited data

How the results depend on the processing

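No paired analysis was run, because the sources used here do not say whether any wound and skin samples came from the same mice. The 7 members called higher became 2 under normexp background correction, 4 when the floor was raised 4-fold and 2 when testing was limited to the 157 miRNAs detected on every array, which hold only 2 members, and the 7 calls were kept when any 1 array was left out (7 to 7). Members called lower numbered 0 in every setting. miR-127-3p passed in all alternatives but the authors' table with columns taken by name, with differences of 3.17 to 3.30 when an array was left out. By those column names, which do not match the array titles, 0 members passed and 0 of 201 miRNAs did in limma (1 at an unadjusted p under 0.05), with differences of -0.86 for miR-127-3p, -0.73 for miR-434-3p, -0.92 for miR-434-5p, -3.68 for miR-431-5p, -3.13 for miR-433-3p, -0.19 for miR-136-5p and -3.35 for miR-136-3p. With its columns matched by values 7 members passed, miR-127-3p at 2.79; these alternatives were chosen after seeing the data. Members at the floor in skin lost their calls with normexp, for which the cause was not tested, miR-136-5p, miR-136-3p and miR-433-3p also with the higher floor, where the wound levels themselves reach it, and miR-433-3p with 3 other scalings. Over all tested miRNAs the 98 higher and 46 lower became 16 and 7 with normexp, 46 and 34 with the higher floor, 52 and 76 with the percentile over all probes, 54 and 56 without scaling, 67 and 66 with the median, and 59 and 37 of the 157. Signal over background limits the undetected arms: 4 members were well above background on no array, and with 1 flagged spot enough, 8 of 11 rather than 7 were detected.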
